A study of Rattus norvegicus with 16 samples.

Results

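The genes described here encode the PRL phosphatases (Ptp4a1, Ptp4a2 and Ptp4a3, for PRL-1, PRL-2 and PRL-3) and 3 of the magnesium-handling CNNM proteins to which they bind (Cnnm2, Cnnm3 and Cnnm4). They were taken as a list of 6 genes out of the 22093 measured, each represented by its single probe set on the array. The list was built around Ptp4a3, which was among the 16 genes called at day 14 of phenformin feeding. That is, it was chosen by its measured day 14 difference. Every difference or correlation of Ptp4a3 that includes the day 14 phenformin hearts is given as a description with no test. Its other tests share a spread estimated on all 16 arrays, those hearts included. The other 5 genes are there as relatives and partners of Ptp4a3, and were listed with earlier results of these data known. Cnnm1, the remaining CNNM gene, is not among them and is given with the other magnesium genes.

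RNA came from the apex of the left ventricle of male RccHan Wistar rats that were 7 to 8 weeks old. Controls ate untreated food for 3 or 14 days, and treated rats ate food with 3000 ppm phenformin, a biguanide that blocks mitochondrial complex I, for the same times. Each of these 4 groups had 4 arrays, labelled as biological replicates, and no allele or other agent was named for any group. A level is the deposited intensity on the log2 scale. A change is the treated mean minus the control mean, its standard error (SE) comes from limma over all 16 arrays, and a gene was called at a Benjamini-Hochberg adjusted p under 0.05 over all 22093 genes.

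PRL phosphatases are small dual-specificity phosphatases held at membranes by a prenylated tail. They bind the cytoplasmic domains of CNNM proteins, which sit in the plasma membrane and take part in magnesium transport, and through this binding they influence the magnesium content of the cell. PRL-3 is known for its high expression in heart and skeletal muscle and for its rise in metastatic tumours.

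The labelled tissue fitted its markers: Actc1, Pln and Myl3, cardiomyocyte genes of the thin filament, the calcium pump regulator and the myosin light chain, had mean log2 levels of 19.85, 19.70 and 19.04. Array medians lay between 4.94 and 5.13 on the log2 scale, and correlations between arrays between 0.984 and 0.991. Control replicates 2 and 3 of day 3 lay farthest from the origin on the first 2 principal components of all genes, at 29.7 and 28.1. Phenformin replicate 4 of day 14 came next, at 24.7. Only the first 2 are meant below by the arrays that stood apart. Calls that rest on them are given with and without both, an alternative chosen after seeing the data. At day 3, 125 genes were called (0.566% of all), at day 14 16 (0.0724%; 0.0226% as higher and 0.0498% as lower), and for the mean effect over both days 267 (1.21%).

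The upstream sequences of a CNNM gene that moved with phenformin and of a family member that did not pass the test show what lies in front of both. Of the 6 genes, 4 had an entry in the RefSeq promoter table for GRCr8; Ptp4a3 and Cnnm4 had none. The 250 bases before the start are printed 5′ to 3′ on the plus strand for Cnnm3 (chr9:46251015-46251264) and Cnnm2 (chr1:255584902-255585151), and capitals mark every match, on either strand, to CCAAT (the CCAAT box), GGGCGG (the GC box), AGGTCA (the hexamer bound by ROR and REV-ERB receptors), CACGTG (the E-box of clock factors) or TGACG (the core of cyclic AMP response elements). No match of a motif overlapped a match of another in these sequences.
Cnnm3: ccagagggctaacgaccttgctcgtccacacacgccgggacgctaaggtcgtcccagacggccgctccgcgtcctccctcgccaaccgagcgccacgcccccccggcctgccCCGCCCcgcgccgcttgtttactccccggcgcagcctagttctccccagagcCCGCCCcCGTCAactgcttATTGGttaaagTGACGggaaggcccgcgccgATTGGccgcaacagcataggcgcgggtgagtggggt
Cnnm2: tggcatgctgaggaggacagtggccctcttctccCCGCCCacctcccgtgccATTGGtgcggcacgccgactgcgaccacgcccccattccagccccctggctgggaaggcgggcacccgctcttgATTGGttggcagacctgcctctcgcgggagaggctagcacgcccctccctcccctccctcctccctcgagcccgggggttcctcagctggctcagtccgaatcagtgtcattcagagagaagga
The window of Cnnm3 held 2 CCAAT, 2 GGGCGG and 2 TGACG matches, with 31 bases between the nearest CCAAT match and the start. That of Cnnm2 held 2 CCAAT matches, 1 GGGCGG match and 0 TGACG matches. Neither window held AGGTCA or CACGTG. Over the 33469 windows of the same length in the table, 34% held CCAAT, 30.5% GGGCGG, 18.2% TGACG, 14.1% AGGTCA and 5.59% CACGTG. The Ptp4a1 window held 1 CCAAT, 2 GGGCGG and 2 TGACG matches and the Ptp4a2 window held 0 matches to any of the 5 motifs. These matches are descriptions of letters, not of bound sites.

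Ptp4a3 was higher in the phenformin hearts at both days. Its log2 levels were 9.91, 9.96 and 9.98 in day 3 control replicates 1, 2 and 3, with replicate 4 the highest at 0.30 below the lowest treated array. They were 10.76, 10.30, 10.50 and 10.47 in the phenformin hearts of that day. Every treated array lay above every control, an order that 2.34% of all genes showed (6.21% with either direction). The day 3 change was 0.55 on the log2 scale (SE 0.106, 1.46-fold, adjusted p = 0.0251, n = 4 per group), so Ptp4a3 was the 1 member called there, in a comparison that called 0.104% of all genes as higher. The day 3 rats are other animals than those of day 14, on which the gene was chosen. The SE was estimated with the day 14 hearts included, so this test is not free of that choice. In a limma fit of only the 8 day 3 arrays the change was 0.55 (SE 0.0933, adjusted p = 0.033).

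The size of the day 3 rise depended little on any array, while the call did. The change lay between 0.46 and 0.62 when any of the 16 arrays was left out. Leaving out control replicate 1, 2 or 3 of day 3 gave an adjusted p of 0.0824, 0.077 or 0.0671. Leaving out phenformin replicate 1, 3 or 4 of that day gave 0.0927, 0.0679 or 0.0611. Without both control arrays that stood apart the change was 0.56 with adjusted p = 0.265, and with the array medians aligned it was 0.52 with adjusted p = 0.121. With the replicate number as a block in the limma fit it was 0.55 with adjusted p = 0.0543.

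At day 14 the log2 levels of Ptp4a3 were 10.06, 9.95, 10.21 and 10.31 in controls and 10.52, 10.96, 10.74 and 10.70 in phenformin hearts. The groups again lay apart, by 0.21, and the difference was 0.60 (SE 0.106, 1.51-fold). The day 14 effect minus the day 3 effect was 0.05 (SE 0.149), with -0.02 to 0.13 as the range when any array was left out. All 4 treated arrays above all 4 controls at both days was seen in Ptp4a3 and in 0.14% of all genes. Since the gene was chosen by its day 14 difference, nothing is read from this share.

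The 4 group means of Ptp4a3 ran from the day 3 controls (9.96 ± 0.0376, SD, n = 4) over the day 14 controls (10.13 ± 0.161) and the day 3 phenformin hearts (10.51 ± 0.191) to the day 14 phenformin hearts (10.73 ± 0.181). Neighbours in this order overlapped: the highest day 14 control, at 10.31, stood beside the lowest day 3 phenformin heart, at 10.30. In controls the change from day 3 to day 14 was 0.17 (SE 0.106, 95% interval -0.05 to 0.40, adjusted p = 0.669). In phenformin hearts the same difference was 0.22 (SE 0.106).

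**Figure D1:**
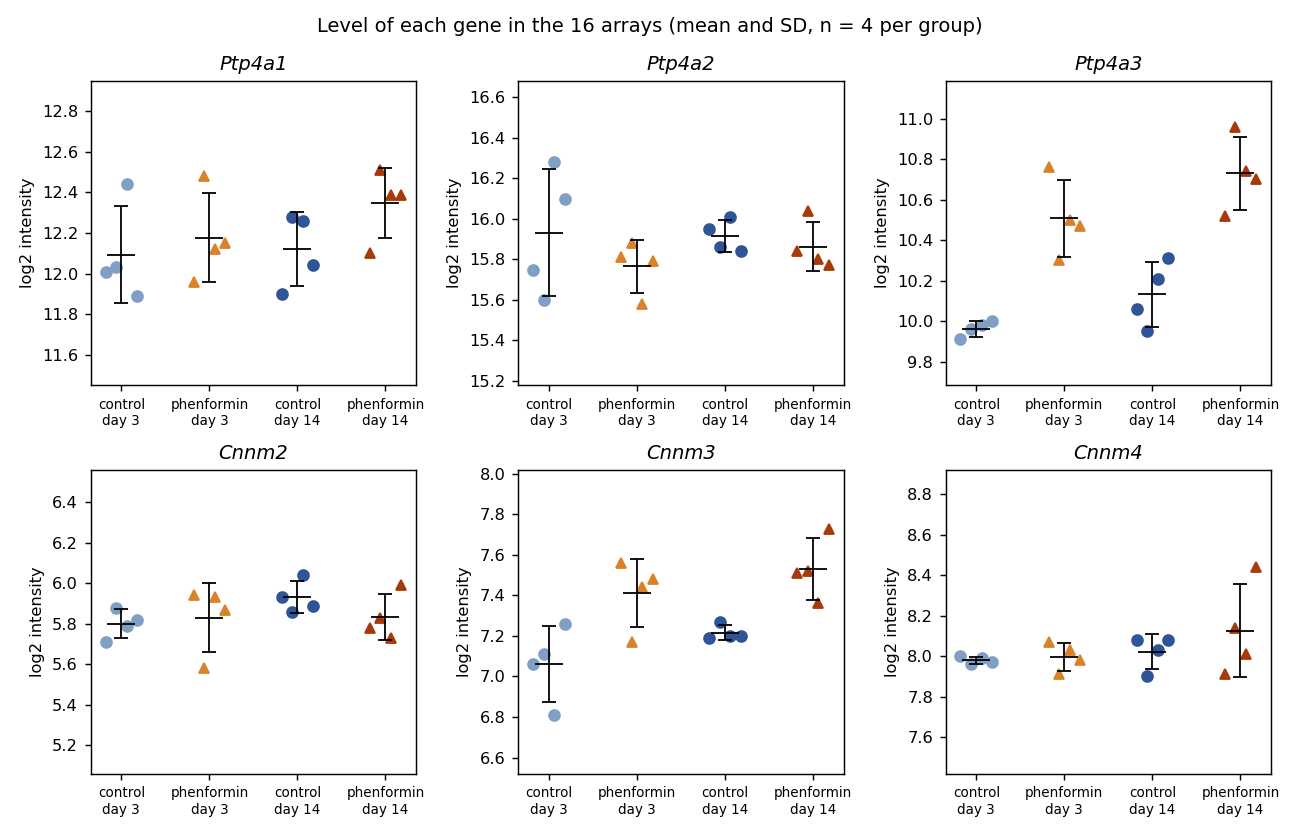
Log2 intensity (vertical axis, each panel 1.5 units high) of the 6 genes in the 16 arrays, with circles for control and triangles for phenformin hearts at day 3 and day 14; black bars are the mean and SD of 4 arrays. Ptp4a3 shows treated arrays above the controls of the same day at both days, Cnnm3 at day 14, and the other 4 genes show overlapping groups.

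Ptp4a1, the PRL gene best known as an immediate early gene of regenerating liver, did not pass the test. Its log2 levels ranged from 11.89 to 12.44 in day 3 controls and from 11.96 to 12.48 in day 3 phenformin hearts, and from 11.90 to 12.28 and from 12.10 to 12.51 at day 14. The groups overlapped at both days. The change was 0.09 at day 3 (SE 0.133, 95% interval -0.20 to 0.37, adjusted p = 0.916) and 0.23 at day 14 (SE 0.133, 95% interval -0.06 to 0.51, adjusted p = 0.569). The array also carries probe sets for Ptp4a1l1, a transcribed pseudogene copy of Ptp4a1 in RefSeq, whose transcripts may bind the same probes. The brighter of them had a mean of 14.42, against 12.18 for Ptp4a1 itself. It followed Ptp4a1 from array to array with r = 0.94 over 16 arrays, and r = 0.95 after the group means were subtracted. Its change was 0.12 at day 3 (SE 0.164) and 0.47 at day 14 (SE 0.164, 95% interval 0.13 to 0.82, adjusted p = 0.287). The other probe set of the copy had 0.22 and 0.45. How far the Ptp4a1 values report the copy was not tested.

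Ptp4a2, the most widely expressed PRL gene, had its widest spread in the day 3 controls, at 15.75, 15.60, 16.28 and 16.10. The day 3 phenformin hearts, at 15.81, 15.88, 15.58 and 15.79, overlapped that range. At day 14 the levels lay between 15.84 and 16.01 in controls and between 15.77 and 16.04 in phenformin hearts. The change was -0.17 at day 3 (SE 0.119, adjusted p = 0.758) and -0.05 at day 14 (SE 0.119, adjusted p = 0.911), with 95% intervals from -0.42 to 0.09 and from -0.30 to 0.20. Without day 3 control replicate 3, the highest, the day 3 change was -0.05. The copy Ptp4a2l1 had a dim probe set, with a mean of 3.67, that did not follow Ptp4a2 (r = -0.15 over 16 arrays). Its change was 0.23 at day 3 (SE 0.217) and -0.13 at day 14 (SE 0.217).

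**Figure D2:**
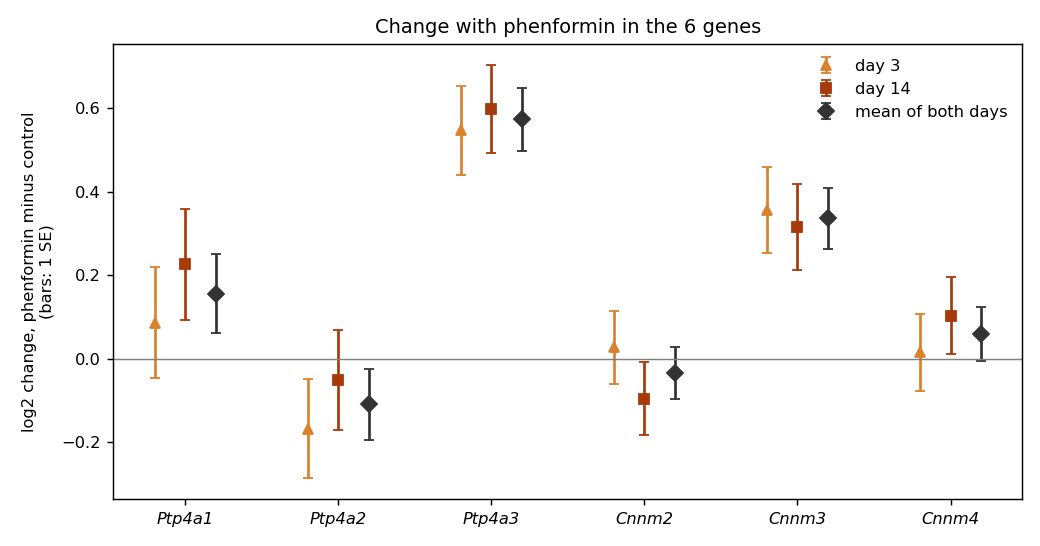
Log2 change, phenformin minus control (vertical axis), of the 6 genes at day 3, at day 14 and for the mean of both days; bars are 1 SE of the limma fit. Ptp4a3 stands at 0.55, 0.60 and 0.57 and Cnnm3 at 0.36, 0.32 and 0.34, while the other 4 genes lie between -0.17 and 0.23; the Ptp4a3 values that include day 14 are those on which the gene was chosen.

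Among the CNNM genes, Cnnm3 was the member that rose with phenformin over both days. Cnnm3 is a widely expressed CNNM protein and a known partner of PRL-2. Its log2 levels were 7.06, 7.11, 6.81 and 7.26 in day 3 controls and 7.56, 7.17, 7.44 and 7.48 in phenformin hearts. At day 3, 3 of the 4 treated arrays lay above the highest control and all 4 above the control mean. At day 14 the controls stood at 7.19, 7.27, 7.20 and 7.20 and the phenformin hearts at 7.51, 7.52, 7.36 and 7.73, so that the groups lay apart by 0.09, a pattern of 2.04% of all genes at that day.

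The mean effect of phenformin on Cnnm3 over both days was 0.34 (SE 0.0726, 1.26-fold, adjusted p = 0.0333), in a comparison that called 1.21% of all genes and 0.326% as higher. Cnnm3 was listed with earlier results of these data known, so this p is not that of a gene picked blind. By day the change was 0.36 at day 3 (SE 0.103, adjusted p = 0.172) and 0.32 at day 14 (SE 0.103, adjusted p = 0.262), and neither passed the test. The day 14 effect minus the day 3 effect was -0.04 (SE 0.145, 95% interval -0.35 to 0.27, adjusted p = 0.972). The mean effect stayed between 0.29 and 0.38 without any single array. The call was kept without day 3 control replicate 4, day 3 phenformin replicate 2, day 14 control replicate 2 and day 14 phenformin replicates 1 and 3. It was lost without any other array, with an adjusted p of 0.0536 to 0.0761. It was also lost with the array medians aligned (adjusted p = 0.105) and without both control arrays that stood apart (0.29, adjusted p = 0.15).

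Cnnm4, known for its role in epithelial magnesium transport, lies next to Cnnm3 in the RefSeq annotation, with 0 genes between them, and did not pass the test. Its 4 day 3 controls were close together, from 7.96 to 8.00, and the day 3 phenformin hearts lay around them, from 7.91 to 8.07. At day 14 the controls ranged from 7.90 to 8.08, and the phenformin hearts stood at 7.91, 8.14, 8.01 and 8.44. The highest of these, replicate 4, carried the day 14 difference: it was 0.10 with all arrays (SE 0.0922, 95% interval -0.09 to 0.30, adjusted p = 0.728) and -0.0024 without it. The change at day 3 was 0.02 (SE 0.0922, 95% interval -0.18 to 0.21, adjusted p = 0.983). On the other side of Cnnm3, the titin-binding ankyrin repeat gene Ankrd23 had changes of 0.21 (SE 0.407) and 1.03 (SE 0.407, adjusted p = 0.369) with wide scatter.

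Cnnm2, the CNNM gene tied to inherited magnesium loss by the kidney, was the dimmest member, with all 16 arrays between 5.58 and 6.04. The change was 0.03 at day 3 (SE 0.0873, 95% interval -0.16 to 0.21, adjusted p = 0.967) and -0.10 at day 14 (SE 0.0873, 95% interval -0.28 to 0.09, adjusted p = 0.733). The deposited values carry no detection calls, so a level this low cannot be told from background here. The mean effects of phenformin over both days on Ptp4a1, Ptp4a2, Cnnm2 and Cnnm4 were 0.16, -0.11, -0.03 and 0.06, with adjusted p of 0.524, 0.655, 0.888 and 0.78.

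In controls, 0 of the 6 genes passed the test of change with time, and 5 lay above 0 (median 0.09, against 0.014 over all genes). The difference between day 14 and day 3 in controls had adjusted p of 0.669 to 0.988 in the members. In that comparison limma called 0 of the 22093 genes (0%), with 2091 at an unadjusted p under 0.05. The day 14 controls stood 0.13 above those of day 3 for Cnnm2 (SE 0.0873) and 0.16 above for Cnnm3 (SE 0.103). In phenformin hearts, where 0.00453% of all genes were called between the days, all as higher, the day 14 minus day 3 difference was 0.17 for Ptp4a1 (SE 0.133), 0.12 for Cnnm3 (SE 0.103) and 0.13 for Cnnm4 (SE 0.0922), with adjusted p of 0.802, 0.818 and 0.77.

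Over the 15 pairs of members, Ptp4a3 and Cnnm3 had the highest correlation across the 16 arrays (Pearson r = 0.80, Spearman rho = 0.81), and r = 0.78 without the 2 arrays farthest from the median of Ptp4a3. Both genes were higher in treated arrays, and Ptp4a3 was chosen for that difference, so no p is given. After the group means were subtracted r was 0.25. Within groups Cnnm2 varied with Cnnm3 (r = 0.67, permutation p = 0.021) and with Cnnm4 (r = 0.62, permutation p = 0.013), and Ptp4a1 ran against Cnnm3 (r = -0.61, permutation p = 0.038). Adjusted over the 15 pairs these p were 0.16, 0.16 and 0.19, so that none of these 3 pairs passed. Groups of 4 arrays are too small for a correlation within each.

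**Figure D3:**
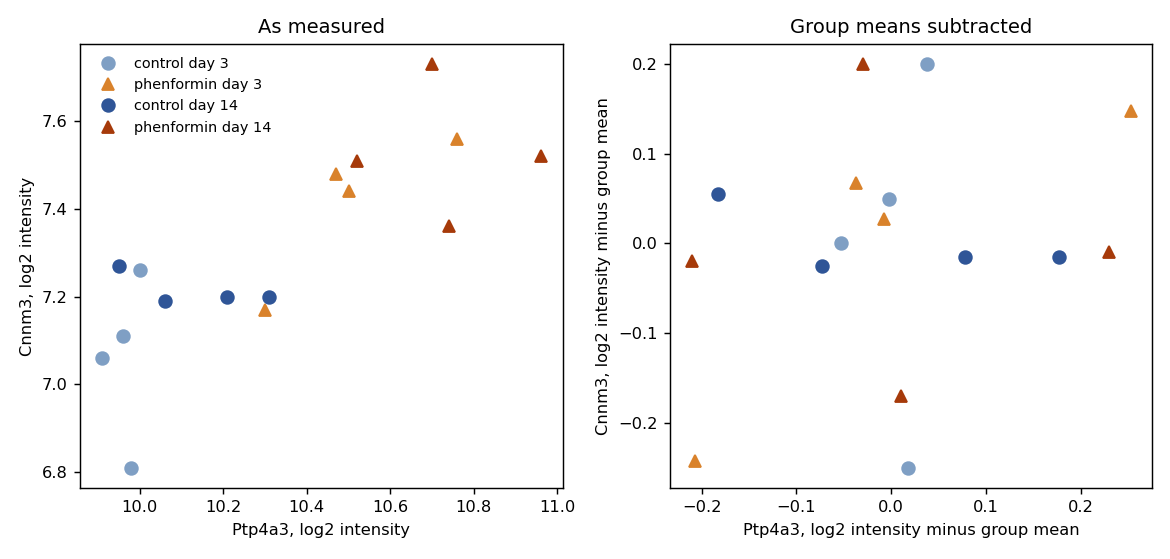
Cnnm3 (vertical axis) against Ptp4a3 (horizontal axis), each point an array, as log2 intensity on the left and with the mean of each group subtracted on the right. On the left the treated arrays (triangles) lie mostly above and to the right of the controls (r = 0.80); on the right the points scatter more widely (r = 0.25).

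Genes whose level over the 16 arrays was most like that of Ptp4a3 were sought among 10776 genes of at least median level. The 5 with the highest r were Hadhb (0.92), which encodes a subunit of the mitochondrial trifunctional protein of fatty acid oxidation, Nr1d2 (0.92) and Nr1d1 (0.90), which encode the REV-ERB clock repressors, Tcap (0.91), which encodes the Z-disc protein telethonin, and Stc2 (0.89), which encodes the secreted glycoprotein stanniocalcin 2. With the group means subtracted, r with Ptp4a3 was 0.68 for Hadhb and 0.64 for Tcap, against 0.42 for Nr1d2, 0.39 for Nr1d1 and 0.36 for Stc2. The changes of Hadhb were 0.24 at day 3 and 0.27 at day 14 (SE 0.0754), those of Tcap 0.99 and 1.19 (SE 0.233). Most opposite to Ptp4a3 were the RNA helicase gene Dhx15 (-0.88), the acyl-CoA synthetase gene Acsl3 (-0.87) and Fam120a (-0.86).

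For Cnnm3 the genes most alike were Them7 and Zfp46, each with r = 0.91 over 16 arrays and with 0.71 and 0.77 after the group means were subtracted. Changes of Zfp46 were 0.37 and 0.34 at day 3 and day 14 (SE 0.122). Cnnm2 was most like Zfp110 (0.87) and Hddc3 (0.86), Cnnm4 most like Lpar3 (0.85) and Tor1b (0.83), Ptp4a2 most like Hddc2 (0.76) and Ccnt1 (0.71), and Ptp4a1, after its copy, most like Sestd1 (0.86). These values share arrays and, for Ptp4a3 and Cnnm3, the group differences, and are given as descriptions.

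**Figure D4:**
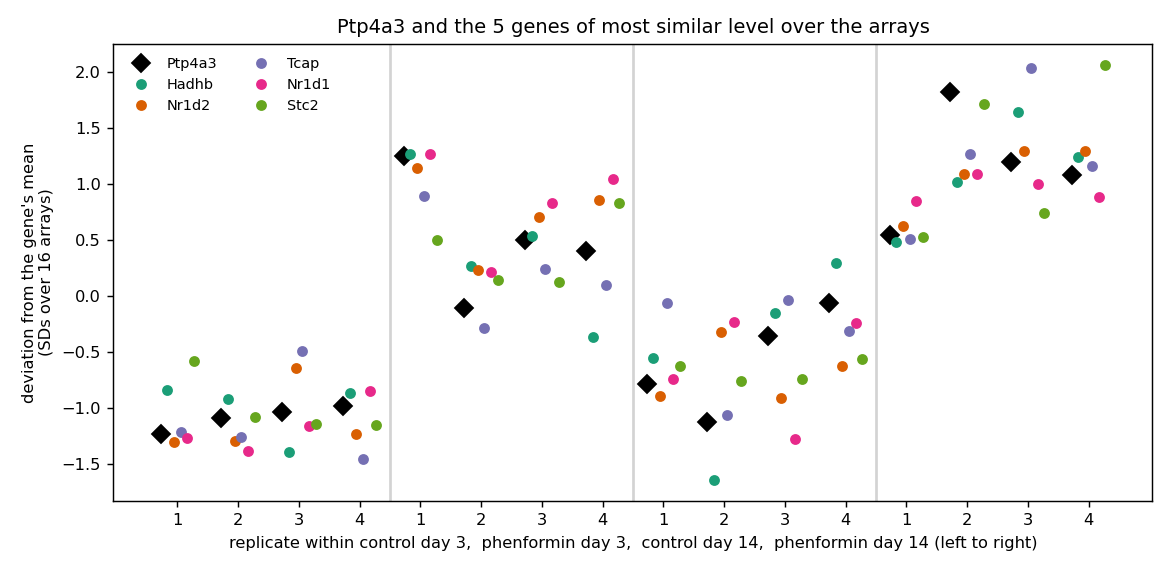
Level of Ptp4a3 (black diamonds) and of the 5 genes most like it in each array (horizontal axis, 4 arrays per group), as deviation from the mean of the gene in SDs over 16 arrays (vertical axis). The 6 genes lie mostly low in both control groups and mostly higher in the phenformin groups. Some day 3 phenformin arrays of Ptp4a3, Hadhb and Tcap lie below a day 14 control. The r with Ptp4a3 is 0.92 for Hadhb and 0.89 for Stc2.

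Other genes of magnesium transport and handling showed no called change. Of 18 listed genes 17 were measured under a symbol of their own, and 0 passed the limma test at day 3, at day 14 or over both days, with 2, 1 and 1 of 17 at an unadjusted p under 0.05, a mark that 2072, 2392 and 2878 of all 22093 genes reached in these comparisons. At day 3, 4 of 17 were above 0 with a median of -0.09, against 0 over all genes; at day 14, 8 of 17 were above 0 with a median of -0.02 against -0.03, and with array medians aligned or quantiles normalised again 10 of 17 were above 0 with a median of 0.01. Slc41a3, a mitochondrial magnesium carrier, had the widest range of change. It stood at 0.26 at day 3 (SE 0.136, adjusted p = 0.612) and -0.33 at day 14 (SE 0.136, adjusted p = 0.386), and the difference between these effects was -0.59 (SE 0.192, adjusted p = 0.54). The day 14 controls of Slc41a3 had stood 0.56 above those of day 3 (SE 0.136, adjusted p = 0.17).

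Tusc3, an oligosaccharyltransferase subunit also tied to magnesium uptake, had the smallest p of the list at day 3, with -0.22 (SE 0.0757, adjusted p = 0.286), and over both days, with -0.16 (SE 0.0535, adjusted p = 0.175). Nipa2 had -0.18 at day 3 (SE 0.0688, adjusted p = 0.366) and Nipa1 0.16 at day 14 (SE 0.0978, adjusted p = 0.584). The channel kinase gene Trpm7 had -0.14 at day 3 and 0.08 at day 14 (SE 0.088), the mitochondrial channel gene Mrs2 -0.18 and 0.10 (SE 0.0852), and Arl15, which encodes a CNNM-binding small GTPase, -0.09 and 0.14 (SE 0.0993). The remaining family member Cnnm1 had 0.10 and -0.04 (SE 0.096). The 95% intervals of Trpm7, Mrs2, Arl15 and Cnnm1 included 0 at both days.

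**Figure D5:**
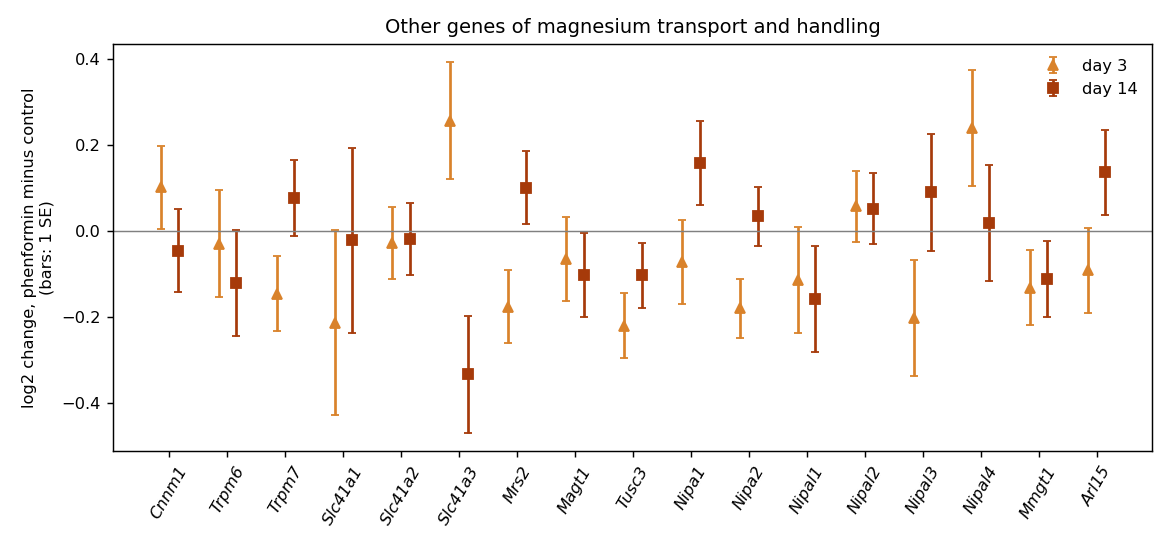
Log2 change, phenformin minus control (vertical axis), at day 3 (triangles) and day 14 (squares) of the 17 measured genes of magnesium transport and handling other than the 6 members; bars are 1 SE. The changes lie between -0.33 and 0.26, and 0 genes passed the test at either day.

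Of 11 measured phosphatases related to the PRLs, 1 was called at day 3, lower, where 0.462% of all genes were called lower, and 0 at day 14, where 0.0724% were called. Cdkn3, a phosphatase of cyclin-dependent kinases active in the cell cycle, fell at day 3, with a change of -0.74 (SE 0.14, adjusted p = 0.0228). Its controls stood at 6.37, 6.69, 6.27 and 6.52 and the phenformin hearts at 5.83, 5.62, 5.65 and 5.79. The groups lay apart, as they did in either direction for 6.21% of all genes at day 3. Over both days Cdkn3 had -0.41 (SE 0.099, adjusted p = 0.055), and with the array medians aligned or without both control arrays that stood apart 0 of the 11 were called at day 3. At day 14 the smallest p of the list was that of Cdc14a, at -0.28 (SE 0.097, adjusted p = 0.297).

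Of 7 measured genes reported upstream of PRL genes, 0 passed the limma test at either day. At day 3 and day 14, 1 and 0 had an unadjusted p under 0.05, against 2072 and 2392 of all 22093 genes. Egr1, an immediate early factor reported to act on Ptp4a1, had -1.52 at day 3 (SE 0.608, adjusted p = 0.393). Its day 3 controls were scattered, at 8.54, 8.81, 11.32 and 7.77, against 7.40 to 7.79 in phenformin hearts. Tgfb1 had -0.29 and -0.27 (SE 0.147). The energy sensors AMPK and mTOR gave 10 measured subunits, of which 0 were called and 0 had an unadjusted p under 0.05 in limma at either day, with medians of 0.06 at day 3 and -0.002 at day 14.

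In bulk tissue, fewer cells of a type and less RNA per cell cannot be told apart. Endothelial markers, of interest because PRL-3 is also found in vessels, lay between 12.06 and 12.27 (mean log2 of 10 genes) in day 3 controls and between 12.24 and 12.39 in phenformin hearts, and between 11.80 and 12.22 and 11.63 and 12.14 at day 14. Their shift was 0.09 and -0.13, with exact permutation p = 0.286 and 0.429 (two-sided). Of the 10 endothelial genes 6 were above 0 at day 3 (5 without both control arrays that stood apart) and 2 at day 14. In limma 0 were called, with 1 and 3 at an unadjusted p under 0.05, a mark that 2072 and 2392 of all 22093 genes reached. The list mean joins genes that moved in opposite directions. At day 3 the smallest p were those of Kdr (0.54, adjusted p = 0.282) and Tek (0.25, adjusted p = 0.541). At day 14 they were those of Cdh5 (-0.44, adjusted p = 0.193) and Pecam1 (-0.41, adjusted p = 0.307).

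Red blood cell markers lay lower in phenformin hearts at both days. All 6 measured genes were below 0 at day 3 and at day 14, and over both days 2 of 6 were called lower, Slc4a1 and Epb42 (-0.98 and -0.45, adjusted p = 0.0101 and 0.0409), in a comparison that called 0.883% of all genes as lower. With array medians aligned or quantiles normalised again 1 of 6 was called, and without both control arrays that stood apart 0 of 6. Their shift was -0.62 at day 3 and -0.83 at day 14 (exact permutation p = 0.0286 and 0.0571). The log2 of their summed intensity ranged from 11.58 to 12.36 in day 3 controls, 10.77 to 11.77 in day 3 phenformin hearts, 11.03 to 13.30 in day 14 controls and 10.08 to 11.25 in day 14 phenformin hearts. Fibroblast markers were below 0 in 8 of 8 genes at day 3, with summed levels of 16.92 to 17.15 in controls and 16.34 to 16.87 in phenformin hearts, and in 7 of 8 at day 14, with 16.59 to 17.08 and 16.31 to 17.12. Their shift was -0.63 and -0.20 (exact permutation p = 0.0286 and 0.343). The median change of the 8 genes at day 3 was -0.74, and -0.78 without both control arrays that stood apart, with 1 of 8 above 0. From day 3 to day 14 their median change was -0.52 in controls and -0.04 in phenformin hearts. Cardiomyocyte markers had summed levels of 21.75 to 21.83 in all 16 arrays, with shifts of 0.04 and 0.02 (exact permutation p = 0.0286 and 0.0571). At day 3, 6 of 9 were above 0, against 2 with array medians aligned and 3 with quantiles normalised again. The highest deposited intensity was nearly the same on every array, at 999968 to 999973. How far this bounds the brightest of these markers was not tested. The part of these cell types in the levels of Ptp4a3 and Cnnm3 was not tested, and 0 markers were at an intensity of 0.

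Of the 20 tests of marker lists by day, 0 passed after adjustment (smallest adjusted p = 0.143), and the exact permutation test of 4 against 4 arrays allows no p under 0.0286. Platelet markers differed by -0.11 at day 3 and -0.73 at day 14 (exact permutation p = 0.571 and 0.0286), and macrophage markers by -0.28 and -0.05 (exact permutation p = 0.0571 and 0.686). Lymphocyte, neutrophil, adipocyte and smooth muscle or pericyte lists differed by between -0.20 and 0.08 at either day.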

How the data were processed

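The authors deposited 1 intensity per probe set (68842) and array on a linear scale, made with RMA per the submitters' processing notes; its version and the step back to a linear scale are not given in the sources used here. Labelling started from 300 ng of RNA. The log2 was taken with no further normalisation. From 23446 probe sets with 1 annotated gene symbol, each of 22093 genes took its probe set of highest mean; every member has 1. No dim gene was dropped.

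All 16 arrays entered 1 fit, with a mean for each group, in limma 3.58.1 in R 4.3.3 (moderated with a mean-variance trend, two-sided, Benjamini-Hochberg within each comparison). The fit was tested first on simulated data with independent normal noise, which held no array that stood apart. At day 3 it recovered 48 of 100 simulated log2 changes of 0.5 and 87 of 100 of 1, with 9 false calls. Correlations used 100000 permutations.

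The members and lists were chosen with earlier results of these data known. Named genes are all members, list genes past the threshold (at most 4) or else the 2 of smallest p, and the genes of highest r (5 for Ptp4a3, with the 3 lowest, and 2 for each other member). Ankrd23 and the Ptp4a copies are outside this rule, as are Slc41a3 in the difference between days, Trpm7, Mrs2, Arl15 and Cnnm1. List genes with no probe set of their own were not analysed here. The alternatives were filters on dim genes, other scalings, spread models, array weights, 8-array fits, a replicate block, other probe set rules, a stricter threshold and leaving out each array; leaving out both arrays that stood apart, and reading each probe set of the copies, were added after seeing the data. The labels name no pairing of arrays by replicate number. Of 24 same-numbered pairs 3 had deviations correlated above 0.1. Their median correlation was 0.036, against -0.013 over the 72 other pairs between groups. Whether the numbers mark a shared batch was not tested. The protocol names 5 animals per group; 4 arrays per group limit the precision.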

Additional observations from a re-analysis of the deposited data

Results flagged for a closer look

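Of 24 gene and group combinations of the 6 members, 1 held an array that lay far from the other 3 by Dixon's test at its 95% critical value, where chance alone gives about 1 in 20. It was Cnnm3 in the day 14 controls, where replicate 2 stood at 7.27 and the others between 7.19 and 7.20 (ratio of gap to range 0.873). The group is the tightest of the 4 for Cnnm3, with an SD of 0.0362, and without this array the mean effect over both days kept its call.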

How the results depend on the processing

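Of 990 recomputed values of the 6 members, 110 were values of Ptp4a3 with no test. Of the 880 tested, 828 kept their direction and their side of the threshold, 24 lost a call and 28 changed sign. The 24 lost calls are of Ptp4a3 at day 3 or Cnnm3 over both days. The day 14 call by which Ptp4a3 was chosen is not among them: 0 members were called at day 14 with medians aligned, with the replicate block or without both arrays that stood apart. Ptp4a3 at day 3 missed the threshold with the array medians aligned (0.52), with the replicate number as a block (0.55, adjusted p = 0.0543), at an adjusted p under 0.01 (0.55) and without both arrays that stood apart (0.56); with 1 array left out it lay between 0.46 and 0.62. At day 14 Ptp4a3 lay between 0.52 and 0.67 in all settings. Cnnm3 over both days missed it with medians aligned (0.34), at an adjusted p under 0.01 (0.34) and without both arrays (0.29), and lay between 0.29 and 0.38 with 1 array left out. Beside these, the block changed no call of a member. The cause of these losses was not tested. At the stricter threshold a call can only be lost. Fewer arrays did not always lose one: without day 14 control replicate 2, Ptp4a3 at day 3 had a limma adjusted p of 0.0192.

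The 28 sign changes are all of differences that did not pass the test. Outside the leaving out of arrays they were Ptp4a1 from day 3 to day 14 in controls (-0.0043 with quantiles normalised again), Ptp4a2 in the same comparison (0.01 with array weights), Cnnm2 over time in phenformin hearts (-0.01 with array weights), Cnnm4 at day 3 (-0.01 with medians aligned), the difference between days of Cnnm3 (0.01 with medians aligned, 0.06 without both arrays) and that of Ptp4a1 (-0.0037 without both arrays). With 1 array left out the ranges were -0.01 to 0.20 (Ptp4a1, day 3), -0.04 to 0.14 and -0.13 to 0.10 (Ptp4a1 and Ptp4a2, time in controls), -0.01 to 0.11, -0.06 to 0.01 and -0.08 to 0.04 (Cnnm2 at day 3, over both days, and over time in phenformin hearts), -0.12 to 0.04 (Cnnm3, difference between days), and -0.01 to 0.04, -0.0024 to 0.17 and -0.02 to 0.16 (Cnnm4 at day 3, at day 14, and their difference).

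The number of genes called depended more on the setting. At day 3 (125) it was 74 with medians aligned, 16 over all probe sets, 13 at an adjusted p under 0.01, 3 without both arrays, and 22 to 149 with 1 array left out. At day 14 (16) it was 33 and 60 above the 25th and 50th percentile of level, 3 with medians aligned, 3 without the trend, 8 with array weights, 5 with the replicate block, 8 with the mean of probe sets, 1 from 8 arrays, 2 over all probe sets, 2 at an adjusted p under 0.01 and 3 to 29 with 1 array left out. Over both days (267) it was 413 above the 50th percentile, 87 with medians aligned, 53 over all probe sets, 25 at an adjusted p under 0.01, 33 without both arrays and 131 to 353 with 1 array left out. From day 3 to day 14 in controls (0) it was 14 and 35 above the 25th and 50th percentile, 3 with quantiles normalised again and 0 to 24 with 1 array left out. In phenformin hearts (1) it was 0 with medians aligned, the replicate block, 8 arrays, all probe sets, an adjusted p under 0.01 and without both arrays, and 0 to 3 with 1 array left out. For the difference between days (0) it was 0 to 1 with 1 array left out. Aligning medians moved the share of higher calls from 31.2% of 16 to 66.7% of only 3 at day 14. Normalising quantiles again moved it from 27% of 267 to 39.2% of 286 over both days. At day 3 the share was 18.4% of 125, against 9.5% of 74 with medians aligned and 26.3% of 133 with quantiles normalised again. Cnnm2 has no value above the 50th percentile of level.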
